A study of Rattus norvegicus with 20 samples.

Results

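The calcium/calmodulin-dependent kinases and the conventional protein kinase C genes were followed through 20 rat brain arrays. The members are Camk2a, Camk2b, Camk2d, Camk2g, Camk2n1, Camk4, Camkk2, Prkca and Prkcb, taken as every probe set that the platform annotation gives to 1 of these genes alone. They made 9 genes and 21 probe sets out of 31042 probe sets that are not controls. A probe set is a group of short probes read as 1 signal. Camk2a had 4 probe sets, Camk2d and Prkcb had 3 each, Prkca had 1 and the other members had 2 each. Of the 21, 19 exceeded 6.62 in mean log2 signal, the 40th percentile over all probe sets, and were tested. The untested ones were Camk2a 1368935_at and Camk2g 1381936_at.

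The isoflurane group was 10 male Sprague Dawley rats that breathed the anaesthetic at 2% (1.4 MAC, the minimum alveolar concentration) in oxygen for 15 min. The oxygen group was 10 male rats of the same strain that breathed oxygen alone for the same time. All rats were 20 weeks old and weighed 250 to 300 g by their labels, and recovered for 6 h before the brain was taken. Each array held RNA of 1 rat, from tissue labelled brain cortex. Values are MAS5 signals on a log2 scale, so a difference of 1 is a doubling. Signals of different probe sets are not comparable in level, so each comparison stays within a probe set.

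Calcium that enters a neuron binds calmodulin, and calcium/calmodulin switches on these kinases. CaMKII is a large ring built from alpha, beta, delta and gamma subunits (Camk2a, Camk2b, Camk2d, Camk2g), is concentrated at synapses and is needed for lasting changes of synaptic strength. Camk2n1 encodes a small protein that inhibits CaMKII. Camkk2 phosphorylates and activates other kinases, among them Camk4, a mainly nuclear kinase that phosphorylates the transcription factor CREB. Prkca and Prkcb are conventional protein kinase C enzymes, which need calcium and diacylglycerol. In the brain the alpha subunit of CaMKII is best known from excitatory neurons of the forebrain, while Camk4 is abundant in cerebellar granule cells.

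The stretches just upstream of Camk2a and Camk2d are shown because these CaMKII subunits had the largest set differences of opposite sign among the members. They are the 250 bases before the annotated start, from RefSeq on the rat build GRCr8, both on the plus strand, at chr18:56648930-56649179 for Camk2a and chr2:217698301-217698550 for Camk2d. Capitals mark the CRE half-site TGACG and the GC box GGGCGG, on either strand.
Camk2a: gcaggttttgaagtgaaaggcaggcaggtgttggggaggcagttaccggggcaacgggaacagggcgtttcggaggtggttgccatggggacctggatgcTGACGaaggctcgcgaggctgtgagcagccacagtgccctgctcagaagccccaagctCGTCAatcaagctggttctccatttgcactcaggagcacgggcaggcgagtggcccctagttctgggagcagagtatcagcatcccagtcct
Camk2d: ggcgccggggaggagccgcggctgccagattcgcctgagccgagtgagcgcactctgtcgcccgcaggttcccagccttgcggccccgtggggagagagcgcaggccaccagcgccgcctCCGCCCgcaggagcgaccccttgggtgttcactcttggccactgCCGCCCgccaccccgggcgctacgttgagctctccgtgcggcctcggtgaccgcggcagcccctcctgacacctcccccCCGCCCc
The Camk2a stretch held 2 matches to TGACG and 0 to GGGCGG, and 60.4% of its bases were G or C. The Camk2d stretch held 0 matches to TGACG and 3 to GGGCGG, and 75.2% of its bases were G or C. Among 33469 rat promoters of the same length, 18.2% held TGACG and 30.5% held GGGCGG. Of the 9 members, 6 were matched to a promoter. The stretches of Camk2b, Camk2g and Prkca held 5, 7 and 2 GC boxes, that of Camk4 held 0, and none of these 4 held TGACG. A match is a run of letters and says nothing of binding.

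Although all tissue was labelled cortex, the arrays fell into 2 sets by the signal of Pcp2, a Purkinje cell gene, above or below 12 on the log2 scale. The cerebellum-like set held 11 arrays, isoflurane 1, 3, 7, 8 and 9 and oxygen 5 to 10, with Pcp2 at 13.60 to 14.17. The cortex-like set held 9 arrays, isoflurane 2, 4, 5, 6 and 10 and oxygen 1 to 4. The granule cell gene Gabra6 was at 13.40 to 14.10 in the cerebellum-like set, against 2.97 to 10.70 in the cortex-like set, and the cortical transcription factor gene Fezf2 at 1.31 to 6.96 in the cerebellum-like set, against 8.69 to 9.43 in the cortex-like set. Of the 6 cortical excitatory markers on the table, Fezf2 and Emx1 (3.40 to 7.28 in the cerebellum-like set, 8.37 to 8.93 in the cortex-like set) separated the sets. The other 4 overlapped. Among oxygen arrays alone the dim Tbr1 separated the sets, at 3.51 to 5.87 in cerebellum-like and 6.47 to 8.31 in cortex-like arrays. So did Neurod6, at 9.78 to 10.20 in cerebellum-like and 10.85 to 10.92 in cortex-like arrays. Slc17a7 overlapped there, and Neurod2 ran the other way, at 9.76 to 10.29 in the cerebellum-like set and 8.40 to 9.20 in the cortex-like set. The summed signal of the 6 overlapped as well, at 3334 to 8114 in the cerebellum-like set and 5181 to 12187 in the cortex-like set. The summed signal of 6 striatal markers did not overlap, at 4515 to 6553 in the cerebellum-like set and 8384 to 18041 in the cortex-like set. Of these, Drd1, Drd2, Adora2a, Rgs9 and Penk each separated the sets, and Ppp1r1b overlapped. The cortical label thus had Fezf2 and Emx1 with it in the cortex-like set, and Pcp2 and Gabra6 against it in the cerebellum-like set. The name cortex-like follows the Pcp2 rule, and the share of striatal tissue in these arrays was not tested. The sets were cut from the arrays' own values, so their differences are descriptions with no test.

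Isoflurane replicates 2, 4, 5 and 6 stood apart within the cortex-like set. They correlated at 0.947 to 0.952 with each other and at 0.887 to 0.923 with the other 5 arrays, which correlated at 0.926 to 0.945 among themselves. Their Pcp2 signal was 4.46 to 5.93, against 10.67 in isoflurane 10 and 7.63 to 8.78 in oxygen 1 to 4. Their summed signal of 5 granule cell markers was 212 to 274, against 3340 in isoflurane 10 and 505 to 1197 in oxygen 1 to 4. Their 3'/5' signal ratio of beta-actin, which widens as RNA is shortened, was 2.30 to 2.86 (log2), against 1.21 to 1.98 in the other 5. The same ratio of GAPDH was not wider in them, at 0.24 to 0.33, against 0.30 to 0.48 in the other 5. Comparisons of isoflurane with oxygen that use these arrays, and the set differences that moved most without them, are given both ways. Since each array was scaled to 1 trimmed mean (500.12 to 500.16), a change is relative to the average transcript.

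The sets differed most in Camk2a, Camk2d and Camk2n1, and less in Camk2b and the protein kinase C genes. The lowest array of one set lay above the highest array of the other in 7 of the 21 member probe sets, from Camk2a, Camk2d, Camk2n1 and Prkcb. These 7 include Camk2a 1368935_at, which was not among the tested probe sets. Among all 18625 tested probe sets the sets did not overlap in 18.8%, 9.47% with the cerebellum-like set higher and 9.34% with the cortex-like set higher. Of these 7 member probe sets, 3 were higher in the cerebellum-like set and 4 in the cortex-like set. The median size of the set difference was 1.05 over the 19 tested member probe sets, against 0.39 over all tested probe sets. In whole tissue, fewer cells of a type and less RNA per cell cannot be told apart.

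Camk2a, the alpha subunit, was lower in the cerebellum-like set by every one of its 4 probe sets. Probe set 1388187_at, the brightest, read 7.47, 5.91, 6.64, 6.55 and 9.19 in the cerebellum-like isoflurane arrays, and 7.26 to 9.89 with a median of 9.22 in the 6 cerebellum-like oxygen arrays. In the cortex-like set it read 13.63, 13.70, 13.76, 13.70 and 11.85 after isoflurane, and 12.14, 12.69, 12.96 and 12.51 after oxygen. All 11 cerebellum-like arrays lay below all 9 cortex-like arrays, with means of 8.03 ± 1.40 (SD, n = 11) and 12.99 ± 0.74 (SD, n = 9), a 31.2-fold difference (21.2-fold without isoflurane 2, 4, 5 and 6). Probe set 1368935_at, too dim to be tested, also did not overlap between the sets (3.33 to 5.48 in cerebellum-like arrays, 7.19 to 8.58 in cortex-like arrays).

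The remaining Camk2a probe sets divided the cortex-like arrays among themselves. Probe set 1389824_at read 10.16, 10.26, 9.66, 10.30 and 8.20 after isoflurane, and 9.14, 6.78, 6.18 and 6.47 after oxygen. In the cerebellum-like arrays it read 5.98 to 6.55 after isoflurane and 5.59 to 7.11 after oxygen, so oxygen 2, 3 and 4 lay within the range of the cerebellum-like arrays and oxygen 1 did not. Probe set 1381637_at likewise set oxygen 1 above oxygen 2, 3 and 4, with 10.45, 10.35, 10.13, 10.35 and 8.93 after isoflurane, and 9.75, 7.83, 7.81 and 7.14 after oxygen in the cortex-like set, where only oxygen 4 lay within the cerebellum-like range of 5.32 to 7.63. The dim probe set 1368935_at did so as well, with oxygen 1 at 8.11 and oxygen 2, 3 and 4 at 7.19 to 7.24. Only the brightest probe set did not set oxygen 1 apart from oxygen 2, 3 and 4 in this way. It thus disagrees with the other Camk2a probe sets on the order of these arrays.

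Camk2d, the delta subunit, ran the other way and was higher in the cerebellum-like set by all 3 of its probe sets. Probe set 1368834_at read 12.84, 12.94, 12.94, 12.90 and 12.74 after isoflurane and 12.54 to 12.87 (median 12.75) after oxygen in the cerebellum-like set. The cortex-like arrays read 11.26, 11.28, 11.44, 11.24 and 11.46 after isoflurane, and 11.35, 11.39, 11.47 and 11.53 after oxygen. The arrays within a set were close to each other, and the set means were 12.80 ± 0.12 (SD, n = 11) and 11.38 ± 0.10 (SD, n = 9). Probe sets 1368833_at and 1371263_a_at showed larger differences, of 2.89 and 2.67, also without overlap. The cortex-like mean of 1368833_at was 6.44, below the filter at 6.62, so the size of its difference rests on dim signal there.

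Camk2b, the beta subunit, which binds actin, differed little between the sets. Its probe set 1375575_at averaged 12.93 ± 0.18 (SD, n = 11) in cerebellum-like arrays and 12.81 ± 0.16 (SD, n = 9) in cortex-like arrays. The other probe set, 1398251_a_at, differed by 0.21, and both overlapped. Camk2g, the gamma subunit, averaged 11.17 ± 0.19 (SD, n = 11) in cerebellum-like arrays and 11.57 ± 0.29 (SD, n = 9) in cortex-like arrays by probe set 1369993_at. Its dim probe set 1381936_at spread over several log2 units in both sets, from 4.75 to 7.84 in cerebellum-like arrays and from 3.91 to 7.19 in cortex-like arrays.

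Camk2n1, the CaMKII inhibitor, followed Camk2a in its order between the sets. Probe set 1370853_at read 8.45, 8.81, 9.11, 8.77 and 9.59 after isoflurane, and 9.22 to 10.16 (median 9.45) after oxygen, in the cerebellum-like set. The cortex-like arrays read 13.15, 13.37, 13.30, 13.49 and 11.50 after isoflurane, and 11.98, 11.80, 11.86 and 12.13 after oxygen. All cerebellum-like arrays lay below all cortex-like arrays, and the means were 9.27 ± 0.47 (SD, n = 11) and 12.51 ± 0.80 (SD, n = 9), a 9.46-fold difference (6.01-fold without isoflurane 2, 4, 5 and 6). Probe set 1389876_at differed by less, -1.05, and its sets overlapped through oxygen 4, which read 8.21.

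**Figure D1:**
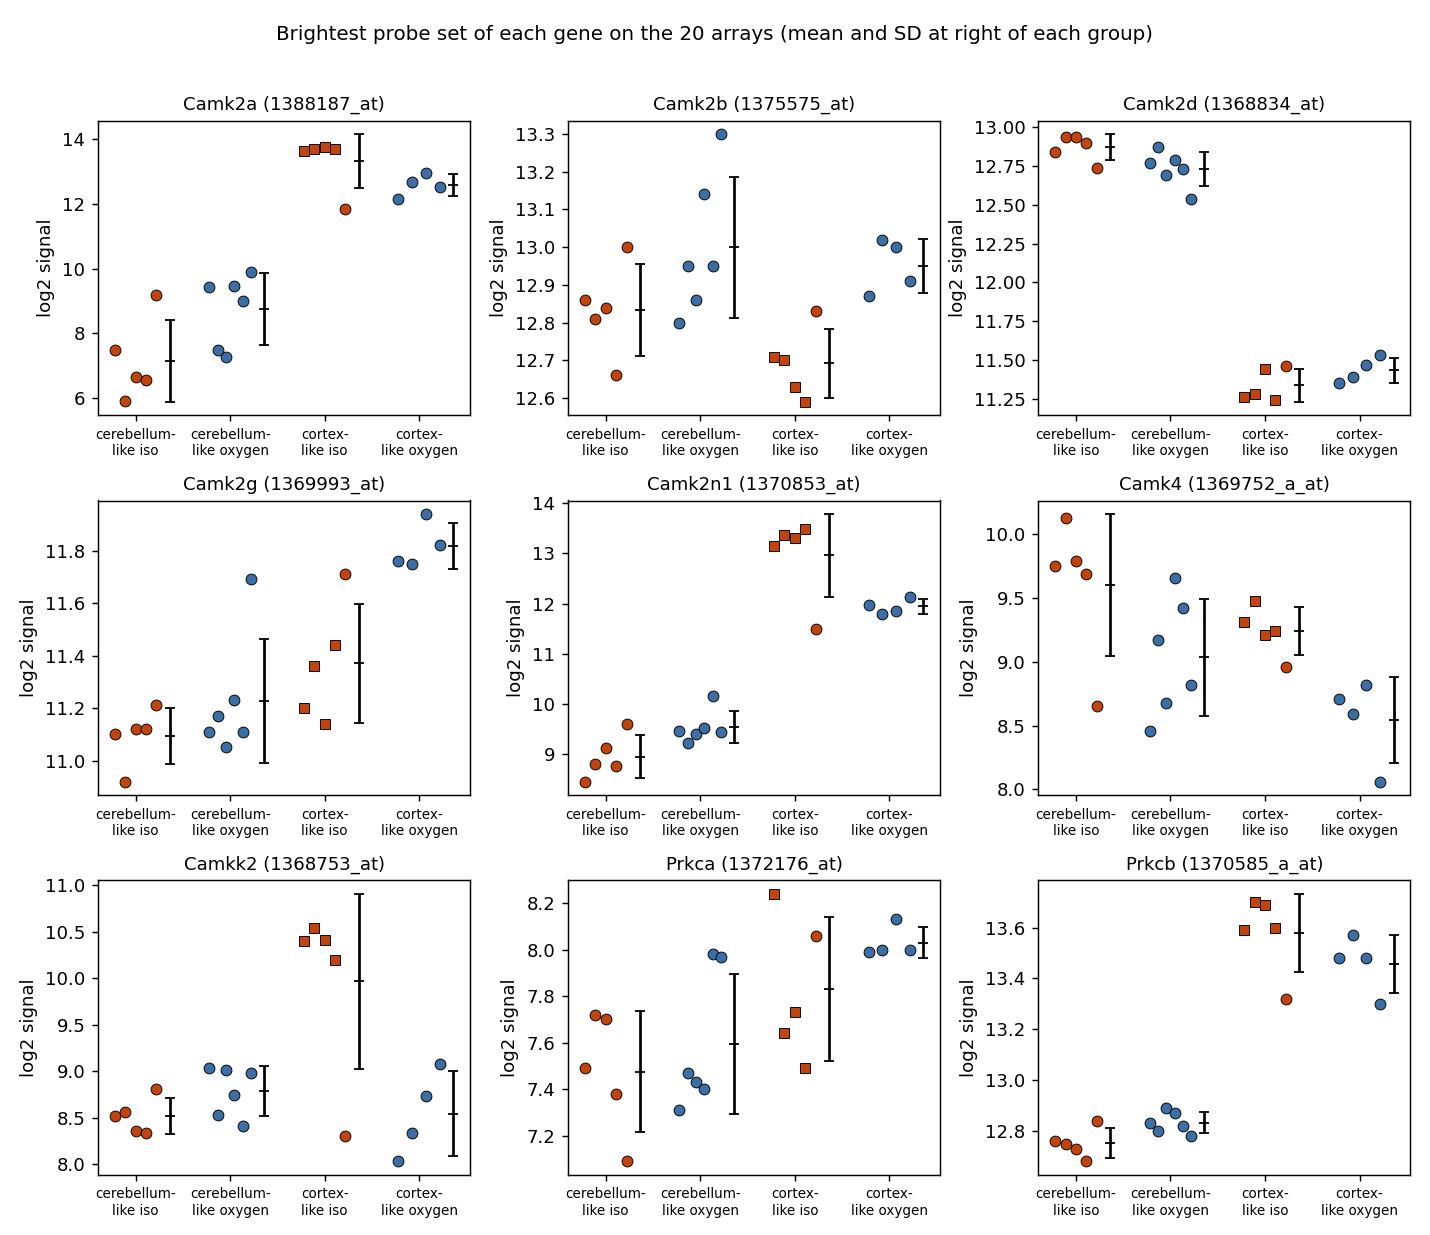
Log2 signal of the brightest probe set of each of the 9 genes (vertical axes, each with its own range) by tissue set and group, 1 point per array, isoflurane arrays (iso on the axis) orange and oxygen arrays blue. Squares are isoflurane 2, 4, 5 and 6, and bars give the mean ± SD of each group. Camk2a and Camk2n1 sit higher and Camk2d lower in the cortex-like set, and isoflurane 10 lies apart from the squares in Camk2a, Camk2n1 and Camkk2.

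Of the kinase cascade, Camk4 averaged higher in the cerebellum-like set, by 0.36 and 1.50 in its 2 probe sets, but both overlapped. Camkk2, its activating kinase, had set differences of opposite sign in the groups by 1 probe set. Probe set 1368753_at differed by -1.45 (cerebellum-like minus cortex-like) among isoflurane arrays and by 0.24 among oxygen arrays. It read 8.52, 8.56, 8.36, 8.34 and 8.81 in cerebellum-like isoflurane arrays, against 10.40, 10.54, 10.41, 10.20 and 8.30 in cortex-like isoflurane arrays. Isoflurane 10 was thus the lowest of all these arrays. The opposite sign was gone without isoflurane 2, 4, 5 and 6, with a difference of 0.21 among isoflurane arrays, where isoflurane 10 alone stood for the cortex-like set. The other Camkk2 probe set, 1375025_at, ranged from 7.82 to 8.64 in the cerebellum-like set and from 7.42 to 8.45 in the cortex-like set.

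The protein kinase C genes differed less between the sets than Camk2a, Camk2d 1368834_at and Camk2n1 1370853_at did. Prkca, by its single probe set 1372176_at, averaged 7.54 ± 0.27 (SD, n = 11) in cerebellum-like arrays and 7.92 ± 0.25 (SD, n = 9) in cortex-like arrays, with overlap. Prkcb, which encodes the beta isoform, was lower in the cerebellum-like set by probe set 1370585_a_at, without overlap. That probe set read 12.68 to 12.84 after isoflurane and 12.78 to 12.89 (median 12.82) after oxygen in cerebellum-like arrays, against 13.59, 13.70, 13.69, 13.60 and 13.32 after isoflurane and 13.48, 13.57, 13.48 and 13.30 after oxygen in cortex-like arrays. Its other probe sets differed by 0.03 (1368240_a_at) and -1.21 (1397189_at), with overlap. Splicing gives Prkcb alternative ends, and which transcript each probe set reads was not analysed here.

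Leaving out isoflurane 2, 4, 5 and 6 kept all 3 Camk2d probe sets higher in cerebellum-like arrays without overlap, and made 6 member probe sets lower without overlap in place of 4. The added ones were Camk2g 1369993_at and Prkca, and the 6 include the untested Camk2a 1368935_at. Among all tested probe sets the share without overlap was then 24.5%, with 12.7% higher and 11.8% lower in the cerebellum-like set, against 18.8% with all arrays. The largest difference, that of Camk2a 1388187_at, was -6.17 among isoflurane arrays (-4.70 with isoflurane 10 alone as the cortex-like array) and -3.82 among oxygen arrays. Camk2n1 1370853_at likewise differed by -4.01 among isoflurane arrays (-2.55 with isoflurane 10 alone) and -2.41 among oxygen arrays. The difference of Camk2a 1389824_at over both groups was -2.20 with the 4 arrays and -0.98 without them, and that of Camk2a 1381637_at was -2.70 with them and -1.80 without them. Without them the differences of Camk4 became larger, 0.67 for 1369752_a_at and 2.24 for 1369753_at, and that of Prkcb 1368240_a_at became -0.39.

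**Figure D2:**
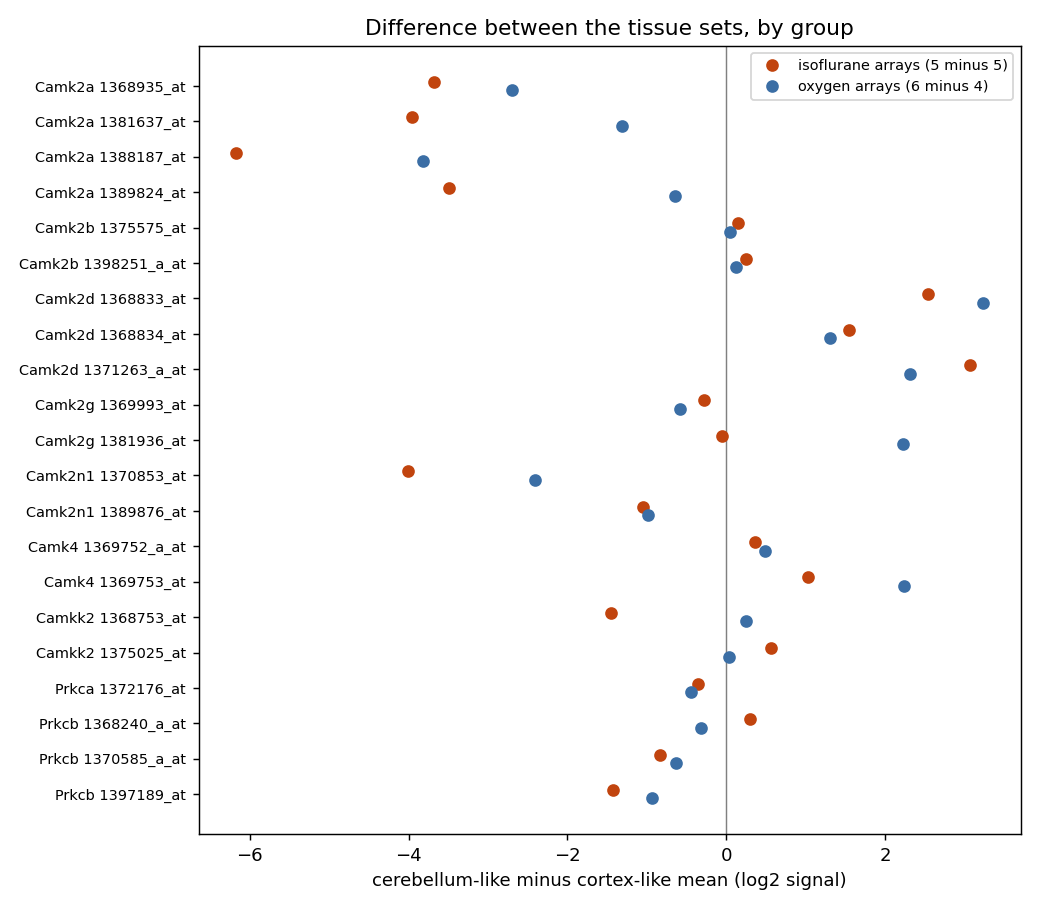
Difference of the cerebellum-like from the cortex-like mean (log2 signal, horizontal axis) for each of the 21 member probe sets, over isoflurane arrays (orange) and over oxygen arrays (blue). Camk2a and Camk2n1 lie left of 0 and Camk2d right of 0 in both groups, and Camkk2 1368753_at lies at -1.45 over isoflurane arrays (0.21 without isoflurane 2, 4, 5 and 6) and 0.24 over oxygen arrays.

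**Figure D3:**
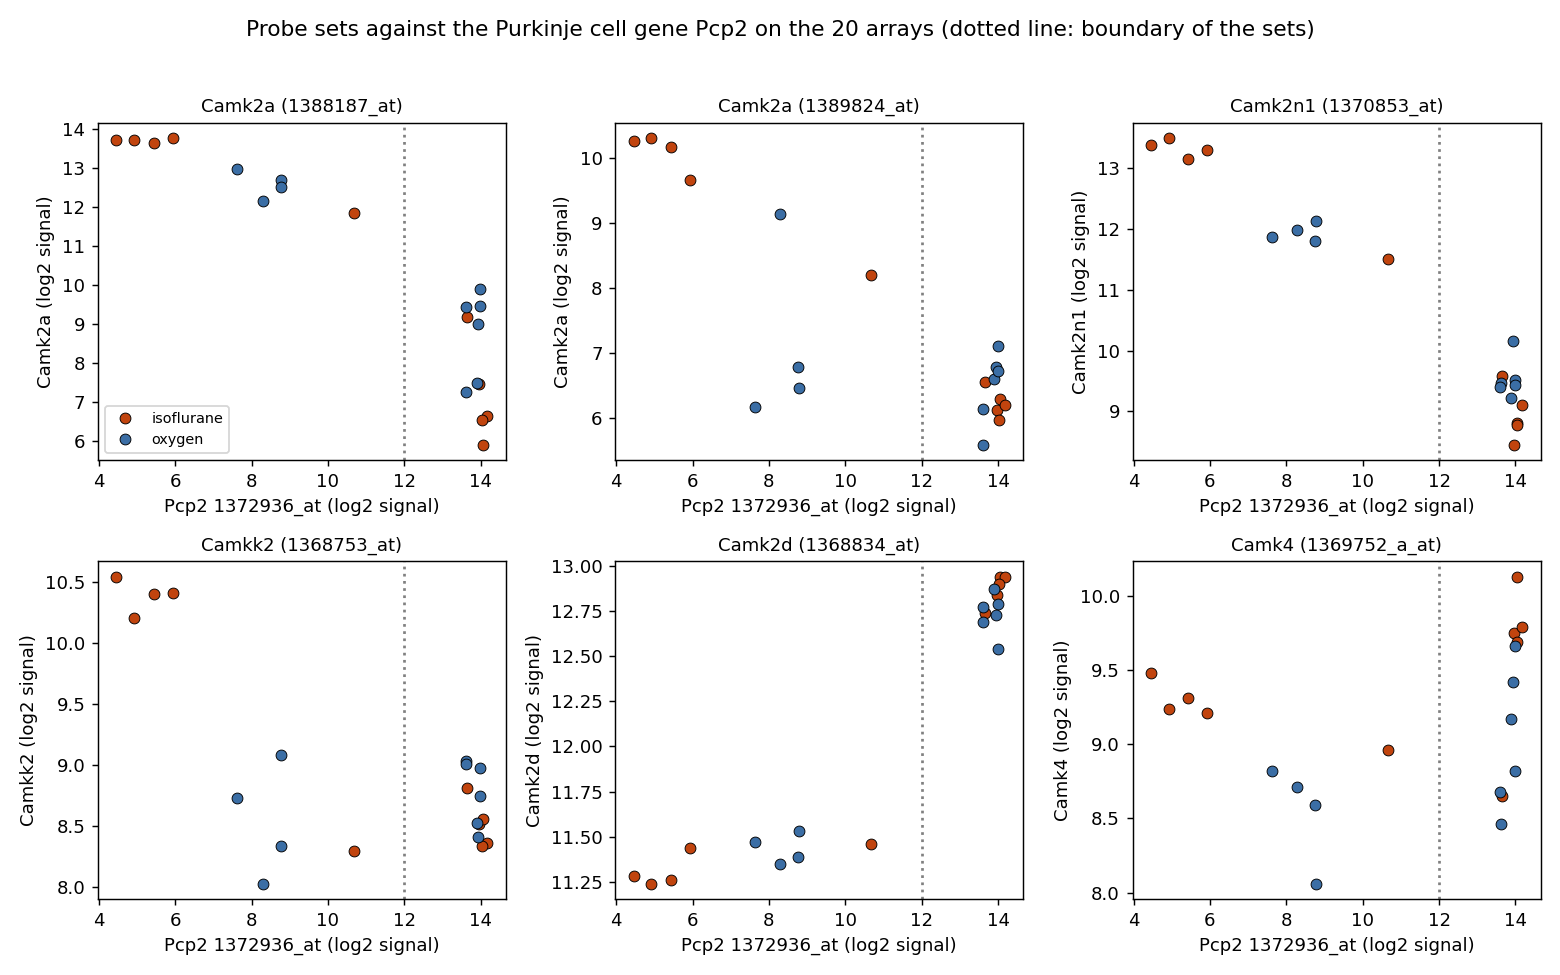
Log2 signal of 6 member probe sets (vertical axes) against log2 signal of the Purkinje gene Pcp2 (horizontal axes), 1 point per array, isoflurane arrays orange and oxygen arrays blue, with the boundary of the sets at 12 as a dotted line. In the cortex-like set, left of the line, isoflurane 2, 4, 5 and 6 have the lowest Pcp2 (4.46 to 5.93) and isoflurane 10 the highest (10.67), so that set spans a wide range of Pcp2 and the cerebellum-like set does not.

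Isoflurane was compared with oxygen in a limma fit over all 20 arrays, with the tissue set as a block and p-values adjusted over 18625 probe sets by the Benjamini-Hochberg method. Camk4 rose after isoflurane by both of its probe sets, and Camk2b fell slightly by 1 of 2. These were 3 of 19 tested member probe sets past an adjusted p of 0.05, against 7.37% of all tested probe sets (2.58% higher and 4.79% lower). Without the set as a block limma called 0 member probe sets, against 0.397% of all, with 3 members and 2941 probe sets at an unadjusted p under 0.05. The other 16 of the blocked fit did not pass, among them all those of Camk2a, Camk2d, Camk2g, Camk2n1, Camkk2, Prkca and Prkcb. The median change of the members was 0.03, against 0 over all tested probe sets. By its design text the study took expression profiles after a short exposure as a base for gene networks, and the comparison here asks which members differed between the groups.

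Camk4 probe set 1369752_a_at read 9.75, 10.13, 9.79, 9.69 and 8.65 after isoflurane in the cerebellum-like set, and 8.46 to 9.66 (median 8.99) after oxygen. In the cortex-like set it read 9.31, 9.48, 9.21, 9.24 and 8.96 after isoflurane, against 8.71, 8.59, 8.82 and 8.06 after oxygen. The groups overlapped in the cerebellum-like set and did not in the cortex-like set. The change in the blocked fit was 0.62 ± 0.17 (SE, adjusted p = 0.0328). Probe set 1369753_at changed by 1.14 ± 0.32 (SE, adjusted p = 0.0381).

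That second Camk4 probe set read 9.87, 10.45, 10.06, 10.17 and 9.30 after isoflurane in the cerebellum-like set, and 7.82 to 10.19 (median 9.53) after oxygen. In the cortex-like set it read 8.82, 8.97, 9.28, 9.16 and 8.47 after isoflurane, against 8.63, 6.88, 7.34 and 5.71 after oxygen. Both sets overlapped between the groups, and the oxygen arrays of the cortex-like set were widely spread. Without isoflurane 2, 4, 5 and 6 the Camk4 changes were 0.53 (adjusted p = 0.248) and 0.77 (adjusted p = 0.333), so the direction was kept and the calls were lost. With each array left out in turn the change stayed between 0.55 and 0.75 for 1369752_a_at and between 0.90 and 1.30 for 1369753_at. Each was past the threshold in 9 of those 20 fits, for 1369752_a_at those without oxygen 1, 3, 5, 6, 7, 8 or 9 or isoflurane 9 or 10, and for 1369753_at those without oxygen 1, 5, 6, 7, 8 or 9 or isoflurane 1, 9 or 10.

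Camk2b 1375575_at changed by -0.21 ± 0.06 (SE, adjusted p = 0.0488). It read 12.86, 12.81, 12.84, 12.66 and 13.00 after isoflurane and 12.80 to 13.30 (median 12.95) after oxygen in the cerebellum-like set. The cortex-like arrays read 12.71, 12.70, 12.63, 12.59 and 12.83 after isoflurane, against 12.87, 13.02, 13.00 and 12.91 after oxygen. The cortex-like groups did not overlap. Without isoflurane 2, 4, 5 and 6 the change was -0.16 (adjusted p = 0.332), and it was past the threshold in 6 of the 20 fits with 1 array left out, those without oxygen 5, 6, 7 or 9 or isoflurane 9 or 10.

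Within the cerebellum-like set alone, 5 isoflurane against 6 oxygen arrays, limma called 0 of 19 member probe sets and 0 of all 18625 (0.0%). At an unadjusted p under 0.05 there were 5 member probe sets and 2376 in all. No member probe set separated the groups there without overlap, against 0.988% of all tested probe sets. The Camk4 changes in this set were 0.57 (adjusted p = 0.39) and 0.61 (adjusted p = 0.449). Summed Purkinje markers were 36385 to 52089 after isoflurane and 36126 to 44721 after oxygen in this set, and summed granule cell markers were 27404 to 34566 after isoflurane and 26979 to 31919 after oxygen. Without isoflurane 9, which read highest or lowest of its group in several members, 3 of 19 member probe sets passed, against 5.83% of all tested probe sets (1.34% higher and 4.49% lower). Camk2a 1388187_at changed by -2.11 and Camk2n1 1370853_at by -0.75, and Camk4 1369752_a_at by 0.80. This was the only 1 of the 11 fits with 1 array of this set left out that called any member probe set.

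Within the cortex-like set, 5 isoflurane against 4 oxygen arrays, 6 member probe sets passed, 5 higher and 1 lower, against 18.6% of all tested probe sets (11.2% higher and 7.42% lower). The higher ones were of Camk2a, Camk4 and Camkk2, and the lower one of Camk2g. Camk2a 1389824_at changed by 2.57 ± 0.60 (SE, adjusted p = 0.0167) and 1381637_at by 1.91 ± 0.47 (SE, adjusted p = 0.0205). The brightest Camk2a probe set, 1388187_at, changed by 0.75 ± 0.36 (SE, adjusted p = 0.159) and did not pass. Camk4 changed by 0.70 (adjusted p = 0.0181) and 1.80 (adjusted p = 0.0211). All 6 calls also passed with quantile normalization and with each array centred on its median, a scaling that shifted the median of all probe sets by -0.21. They were less even with 1 array left out. Camk4 1369752_a_at passed in 8 of 9 such fits, Camk2a 1389824_at in 7 and Camk4 1369753_at in 5. Camk2a 1381637_at passed in 3, Camk2g 1369993_at in 2 and Camkk2 1368753_at in 1, that without isoflurane 10.

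Camkk2 1368753_at read 10.40, 10.54, 10.41, 10.20 and 8.30 after isoflurane, against 8.03, 8.34, 8.73 and 9.08 after oxygen in this set. The change was 1.43 ± 0.42 (SE, adjusted p = 0.0363), with isoflurane 10 inside the range of the oxygen arrays. Camk2g 1369993_at read 11.20, 11.36, 11.14, 11.44 and 11.71 after isoflurane, against 11.76, 11.75, 11.94 and 11.82 after oxygen, a change of -0.45 ± 0.12 (SE, adjusted p = 0.026). The groups did not overlap in 3 of 19 tested member probe sets, Camk2b 1375575_at and Camk2g 1369993_at lower and Camk4 1369752_a_at higher, against 13.2% of all tested probe sets.

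None of these calls was kept without isoflurane 2, 4, 5 and 6. Then, with isoflurane 10 alone assumed to vary like the oxygen arrays, limma called 0 member probe sets and 0 of all probe sets (0.0%), with 2 members and 876 probe sets in all at an unadjusted p under 0.05. The changes were then 1.06 for Camk2a 1389824_at, 0.80 for Camk2a 1381637_at, -0.24 for Camkk2 1368753_at, -0.10 for Camk2g 1369993_at, and 0.41 and 1.33 for Camk4. Of the 6 calls, that of Camkk2 1368753_at turned its direction and the others kept theirs. Of all 19 tested member probe sets 9 turned, among them the 2 at an unadjusted p under 0.05. These were Camk2a 1388187_at, at 0.75 with the 4 arrays and -0.73 without them, and Camk2n1 1370853_at, at 1.02 with them and -0.44 without them. Leaving out 1 array at a time gave 1 call (without isoflurane 4) to 11 calls (without isoflurane 10). It was 2 calls without oxygen 2, 3 or 4 or isoflurane 6, and 3 without isoflurane 2 or 5.

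Of other measures in the cortex-like set, the summed cortical excitatory markers (6 of 7 on the table, Tbr1 below the filter) separated the groups, at 5181 to 6640 after isoflurane, against 7896 to 12187 after oxygen. Slc17a7, the brightest of these markers, was at 11.31 to 11.72 after isoflurane and 12.09 to 13.06 after oxygen. Neurod6 and Emx1 were also lower after isoflurane without overlap, but Fezf2, Tbr1 and Neurod2 overlapped. Neurod2 leaned the other way, at 8.83 to 9.98 after isoflurane and 8.40 to 9.20 after oxygen. The other sums and ratios given here overlapped between the groups. Summed Purkinje markers (4 of 4 on the table) were 2281 to 2690 in isoflurane 2, 4, 5 and 6 and 6925 in isoflurane 10, against 3101 to 4404 after oxygen. Summed striatal markers were 8384 to 18041 after isoflurane and 10705 to 16379 after oxygen, and summed oligodendrocyte markers 50532 to 65486 after isoflurane and 40400 to 58620 after oxygen. Of the markers in these 4 lists, none was at the floor of the scale in a cortex-like array. Single markers outside the excitatory list also separated the groups, as did 13.2% of all tested probe sets. Gad1, Gad2 and Mog were higher after isoflurane without overlap, and Sst, Wfs1, Csf1r and Slco1c1 were lower. The part of these cells in the member changes was not tested. The beta-actin 3'/5' ratio was 1.21 to 2.86 after isoflurane and 1.21 to 1.98 after oxygen, and the GAPDH ratio 0.24 to 0.33 after isoflurane and 0.30 to 0.48 after oxygen. With the mean of both ratios as a covariate of the blocked comparison, 2 of 19 member probe sets passed, against 9.19% of all tested probe sets (3.11% higher and 6.08% lower). They were those of Camk4, at 0.65 (adjusted p = 0.026) for 1369752_a_at and 1.14 (adjusted p = 0.0379) for 1369753_at, and the Camk2b call was lost (adjusted p = 0.053).

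**Figure D4:**
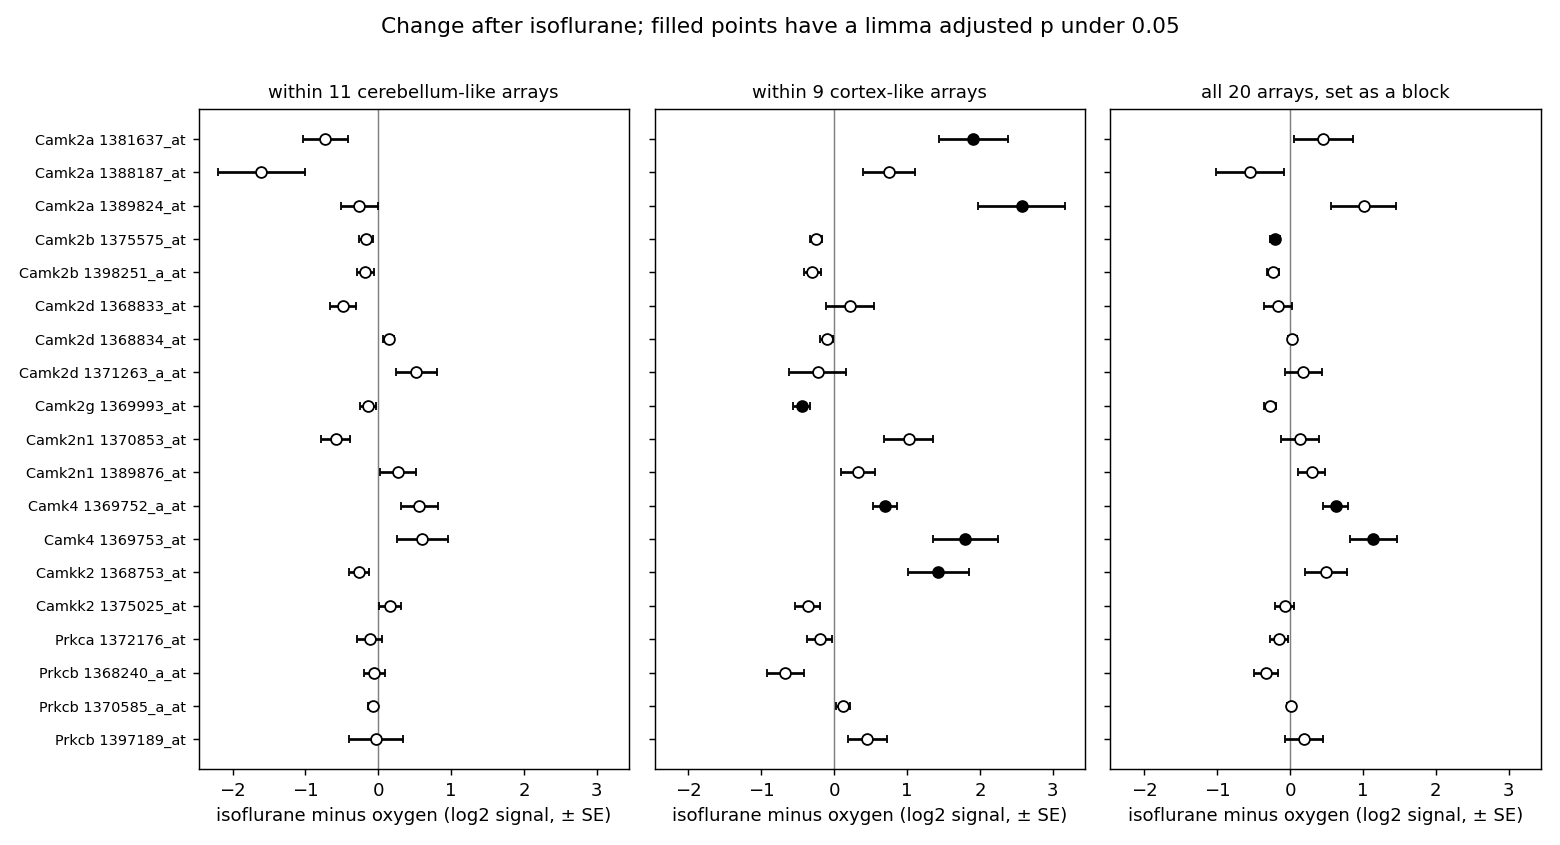
Change after isoflurane (isoflurane minus oxygen, log2 signal, horizontal axis) of the 19 tested member probe sets within the cerebellum-like set, within the cortex-like set and over all 20 arrays with the set as a block. Points are limma estimates with bars of ± 1 SE, filled where the adjusted p is under 0.05, which holds for 0, 6 and 3 probe sets.

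The isoflurane change itself differed between the sets in 4 of 19 member probe sets, against 10.2% of all tested probe sets, by the interaction term of limma. All 4 had the lower change in the cerebellum-like set, as had 7.61% of all tested probe sets. The differences were -2.63 ± 0.59 (SE, adjusted p = 0.0109) for Camk2a 1381637_at and -2.84 ± 0.66 (SE, adjusted p = 0.0125) for Camk2a 1389824_at. They were -1.60 ± 0.41 (SE, adjusted p = 0.0192) for Camk2n1 1370853_at and -1.70 ± 0.44 (SE, adjusted p = 0.0207) for Camkk2 1368753_at. All 4 passed in each of the 20 fits with 1 array left out, and none passed without isoflurane 2, 4, 5 and 6, against 0.0698% of all tested probe sets. Of the 4, Camk2a 1381637_at and 1389824_at averaged 6.49 and 6.37 in the cerebellum-like set, below the filter at 6.62. They passed the filter only through the cortex-like arrays, with means of 9.19 and 8.57. Their change in the cerebellum-like set was thus read from dim signal. The Camk4 changes differed by -0.13 (adjusted p = 0.843) and -1.19 (adjusted p = 0.206) between the sets.

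Other genes of calcium and protein kinase C signalling were read from a list of 40, of which 36 were named on the array and 35 tested. In the blocked fit 0 rose and 2 fell, 5.71% of the 35, against 7.37% of all tested probe sets, so the share was no larger in the list than over the array. Camk2n2, the other CaMKII inhibitor gene, fell by 1.06 ± 0.23 (SE, adjusted p = 0.0139), with means of 8.26 after isoflurane and 8.78 after oxygen in the cerebellum-like set, and 6.38 after isoflurane and 8.10 after oxygen in the cortex-like set. Marcksl1, a protein kinase C substrate related to Marcks, fell by 0.51 ± 0.09 (SE, adjusted p = 0.0085), with means of 10.91 after isoflurane and 11.31 after oxygen in the cerebellum-like set, and 11.90 after isoflurane and 12.54 after oxygen in the cortex-like set. Both were lower after isoflurane in each set. Without isoflurane 2, 4, 5 and 6 the changes were -0.68 (adjusted p = 0.154) and -0.39 (adjusted p = 0.148), and neither passed.

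The protein kinase C substrates Gap43, Marcks and Nrgn did not pass. Gap43, a growth cone protein, changed by 0.06 (adjusted p = 0.68), and Marcks, which binds membrane and actin, by -0.20 (adjusted p = 0.164). Nrgn, a calmodulin-binding protein of forebrain dendrites, changed by -0.49 (adjusted p = 0.624). Its means were 8.54 after isoflurane and 9.33 after oxygen in the cerebellum-like set, and 13.43 after isoflurane and 13.55 after oxygen in the cortex-like set. Within the cortex-like set 1 pathway gene rose, Plcb4 (a phospholipase C, by 0.57), and 4 fell, Camk2n2, Marcksl1, Camk1 and Camkv. Plcb4, Camk1 and Camkv were named after their values were seen, and these 5 calls (14.3%) were a smaller share than the 18.6% of all tested probe sets. Within the cerebellum-like set 0 passed, and without isoflurane 2, 4, 5 and 6 also 0.

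Genes whose signal varied most like each member were found by Pearson's r over the 20 arrays, after the mean of each set and group was subtracted, among 10257 genes. The brightest Camk2a probe set was most like Dusp3 (r = 0.896), Camk2b like Ilrun (r = 0.885), Camk2d like Scfd1 (r = 0.845) and Camk2g like Slc25a33 (r = 0.895). Camk2n1 was most like Slitrk3 (r = 0.926), Camk4 like Orc3 (r = 0.925) and Camkk2 like Ankrd17 (r = 0.924). Prkca was most like Rprd2 (r = 0.828) and Prkcb like Wasl (r = 0.868). The runners-up were Ubtf for Camk2a, Ppfia3 for Camk2b, Ppp1r14c for Camk2d, Pxdc1 for Camk2g, Satb1 for Camk2n1, Bmpr2 for Camk4, Ank3 for Camkk2, Ltc4s for Prkca and Cpeb4 for Prkcb, at 0.809 to 0.924. Without isoflurane 2, 4, 5 and 6 (16 arrays) the first-named pairs had r of 0.679 (Prkcb with Wasl) to 0.931 (Camk4 with Orc3), and Camkk2 with Ankrd17 had 0.727. These are descriptions over arrays that share array-wide signal and include isoflurane 10, which lay far from its group in Camk2a, Camk2n1 and Camkk2.

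Probe sets of the same member did not always vary together on the same measure. The tested probe sets of Camk2a had r of 0.32 to 0.82 with each other, those of Camk2b 0.74 and those of Camk4 0.59. The probe sets of Camk2d had r of 0.07 to 0.53. Those of Camk2n1 had -0.25, those of Camkk2 -0.15 and those of Prkcb -0.40 to 0.01. Without isoflurane 2, 4, 5 and 6 the lowest for Camk2a was 0.13, and Camk2b and Camk4 had 0.78 and 0.59. For the members with low values a statement holds for the named probe set and not for the gene as a whole.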

How the data were processed

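Each of 20 arrays held total RNA of 1 rat, 10 per group, and the titles of the samples gave group and replicate number. The authors deposited linear intensities, for which the submitters' processing notes name MAS5 and Affymetrix Expression Console, with versions and settings not given in the sources used here. Detection calls were not used here, so dim signal could not be told from absence. Arrays have no read depth, and their number limits the precision. After leaving out 57 controls from 31099 probe sets, a floor of 1 was set and log2 was taken. Of the remaining 31042, 18625 above the 40th percentile of mean log2 signal were tested. Symbols came from the platform annotation, updated through the rat RefSeq table.

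Tissue sets followed the Pcp2 rule. limma 3.58.1 in R 4.3.3 (eBayes with trend, p-values two-sided and adjusted by Benjamini-Hochberg, threshold 0.05) fitted isoflurane minus oxygen with the set as a block, within each set, and the difference between sets. The labels do not say how rats were batched, and each p-value weighs a change against the spread of these arrays within the fitted groups. The fits were tested on simulated data. Python 3.11.15 with pandas 2.3.3, numpy 2.4.6 and matplotlib 3.10.9 was used for descriptions and plots. The members and lists, the sets and the tests were chosen with earlier results of these data known. The text names all member probe sets, pathway genes past the threshold in the blocked fit with Nrgn, Gap43 and Marcks, 3 genes called within the cortex-like set (Plcb4, Camk1, Camkv, named after their values were seen), and the 2 genes most alike to each member. Pathway genes and likeness used the brightest tested probe set of each gene. Some genes of the rule are not reported here. Alternatives were other scalings, pseudocounts, filters, variance settings, blocks and left-out arrays.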

Additional observations from a re-analysis of the deposited data

Results flagged for a closer look

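In groups of 4 to 6 arrays, 12 single values stood apart from the rest of their set and group in a member probe set, by Dixon's ratio, out of 84 groups looked at. The ratio is relative to the spread of the group, so a flagged value can lie close to the others. Several flags fell on the same array and are not independent. Chance gives about 1 in 20. Isoflurane 10 accounts for 5 of them among the cortex-like isoflurane arrays. It read 7.40 in Camk2a 1368935_at (the others 8.33 to 8.58), 8.93 in Camk2a 1381637_at (the others 10.13 to 10.45) and 11.85 in Camk2a 1388187_at (the others 13.63 to 13.76). It read 11.50 in Camk2n1 1370853_at (the others 13.15 to 13.49) and 8.30 in Camkk2 1368753_at (the others 10.20 to 10.54).

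Among the cortex-like oxygen arrays, oxygen 1 read 8.11 in Camk2a 1368935_at (the others 7.19 to 7.24), and oxygen 3 read 8.13 in Prkca 1372176_at (the others 7.99 to 8.00). Oxygen 4 read 6.97 in Camk2d 1368833_at (the others 6.06 to 6.13) and 8.21 in Camk2n1 1389876_at (the others 9.35 to 9.39). Among the cerebellum-like arrays, isoflurane 9 read 9.29 in Camk2d 1371263_a_at (the others 10.25 to 10.61). Oxygen 10 read 11.69 in Camk2g 1369993_at (the others 11.05 to 11.23), and oxygen 9 read 10.16 in Camk2n1 1370853_at (the others 9.22 to 9.52).

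The isoflurane change differed between the cerebellum-like and cortex-like sets by limma's interaction term in 4 probe sets, -2.63 in Camk2a 1381637_at, -2.84 in Camk2a 1389824_at, -1.60 in Camk2n1 1370853_at and -1.70 in Camkk2 1368753_at. Without isoflurane 2, 4, 5 and 6 limma called 0 of them. The Camk2a probe sets among them averaged below the filter, at 6.62, in the cerebellum-like set.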

How the results depend on the processing

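The blocked comparison called 3 member probe sets and 1372 in all. Member calls were 1 with no filter, 0 with no tissue set block and 0 without isoflurane 2, 4, 5 and 6. All calls were 74 with no tissue set block and 0 without those 4 arrays. The pathway count of 2 became 5 with array weights, 0 with no tissue set block, 0 without the 4 arrays and 4 with the mean of a gene's probe sets. With a replicate block there were 0 member, 29 overall and 1 pathway calls. Samples that share a number correlated at -0.26 to 0.23, over 0.1 for 2 of 10 numbers, so no pairing by number was seen. Numbers 1, 3, 5, 6 and 10 join arrays of different tissue sets, where a low correlation cannot decide whether rats were paired.

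Within the cortex-like set the 6 member calls became 10 (5 higher, 5 lower) with median-centred arrays, where all calls were 5243 (28.2% of those tested) in place of 3469 (18.6%), and 0 without the 4 arrays, an alternative chosen after seeing the data. The 4 differences between sets became 8 with median-centred arrays, 2 with a filter at the 60th percentile and 0 without the 4 arrays. Of all calls, 35% were higher in the blocked fit and 20.6% with median-centred arrays, and 60.2% and 28% within the cortex-like set. Without the 4 arrays 0 calls came with 3016 probe sets at an unadjusted p under 0.05 in the blocked fit, 4 of them members.

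With 1 array left out, member calls ranged from 0 to 5 in the blocked fit (highest without isoflurane 10), 1 to 11 within the cortex-like set, 0 to 3 within the cerebellum-like set and 4 to 7 for the difference between sets (highest without isoflurane 10). Overall calls ranged from 480 (without oxygen 4) to 2938 (without isoflurane 9) and pathway calls from 2 to 8 (without isoflurane 9). The 7 member probe sets whose tissue sets did not overlap stayed within 1.5 times under every scaling and pseudocount tried, and were 9 without the 4 arrays, an alternative added after seeing the data.

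Single member values turned sign in the blocked fit as follows, none past the threshold. Prkcb 1370585_a_at was -0.068 with quantile normalization, -0.063 with median-centred arrays and -0.091 without the 4 arrays. Camk2d 1368834_at was -0.044 with median-centred arrays and -0.11 with no tissue set block, where Camk2d 1371263_a_at was -0.085. Without the 4 arrays Prkcb 1368240_a_at was 0.02, Camkk2 1368753_at -0.26, Camkk2 1375025_at 0.065, Camk2n1 1370853_at -0.55 and Camk2a 1381637_at -0.38. The causes were not tested.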
